A study of Mus musculus with 4 samples.

Results

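The forkhead (Fox), Sox, Gata and T-box (Tbx) genes of the mouse were followed through single-cell RNA sequencing libraries of the fetal pancreas. Members were chosen by their symbols, as Fox followed by a letter and a number, Sox followed by a number, Gata1 to Gata6, and Tbx followed by a number. This gave the 81 annotated genes reported here, all protein-coding, made up of 43 Fox, 19 Sox, 6 Gata and 13 Tbx genes. Of these, 72 were among the 29652 genes held by at least 1 complete list. The libraries came from C57BL/6 embryos, 1 library for WT and 1 for KO at E13.5 and at E15.5. All embryos carried the floxed allele Setd2 f/f. KO embryos also carried the Pdx-Cre transgene (PdxcreSetd2 f/f), and WT embryos were Setd2 f/f without it. Pdx-Cre is active in pancreatic epithelium, and no value here shows in which cells Setd2 was lost. Tissue was dissociated and cells were sorted after EpCAM labelling, EpCAM being a surface protein of epithelia. The labels do not say which sorted fraction was sequenced or how many embryos were pooled.

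Each library was represented by a list of genes, so a gene was either listed or not, with no count, cell number or level behind it. The depth is therefore unknown, and a gene that is not listed may have been missed. A listed gene may come from a single cell or from most cells, since fewer cells of a type and less RNA per cell cannot be told apart. Each group had 1 library, so replicate error could not be measured and no test was made. The complete lists held 25463 (E13.5 WT), 26341 (E13.5 KO) and 25474 genes (E15.5 KO), and the E15.5 WT list broke off after 167. Setd2, the targeted gene, was listed in the 3 complete lists, which does not check the deletion. All 9 pancreatic epithelial markers examined, among them Epcam, Pdx1 and Ptf1a, were in each complete list. Markers of other cell types were there too. The E13.5 WT and E13.5 KO lists each held 5 of 5 markers for mesenchyme and for endothelium, 4 of 4 for erythroid cells and for immune cells, and 2 of 2 for neural crest and glia. Of 4 markers of liver and gut, Alb, Afp and Cdx2 were in the 3 complete lists and Muc5ac was missing from E13.5 KO.

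The proteins of the 4 families bind DNA through different domains. Forkhead proteins carry a winged helix, and the Foxa members can open closed chromatin in early endoderm. Sox proteins bend DNA through an HMG box, Gata proteins read the sequence GATA through zinc fingers, and Tbx proteins carry the T-box domain of Brachyury. In the pancreas Foxa1 and Foxa2 act upstream of Pdx1, Gata4 and Gata6 are needed for the epithelium to form, and Sox9 maintains the progenitors. Other members mark the tissues around it, such as Foxf1 in gut mesenchyme, Sox18 in endothelium, Gata1 in red blood cells and Sox10 in neural crest. Each gene was given 1 role from such general knowledge, although many act in several tissues.

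The Gata family shows how differently the starts of related genes are built, and its sequences are printed because Gata1 and Gata3 went missing together between the KO lists while the other 4 stayed. Of those 4, Gata2 and Gata5 are shown, and Gata4 and Gata6 are not. The 250 bases before each start site are given 5′ to 3′ on the gene's strand, from RefSeq on GRCm38.p6, with each CG dinucleotide in capitals. Gata1 lies on the minus strand at chrX:7967911-7968160, Gata3 on the minus strand at chr2:9878601-9878850 and Gata5 on the minus strand at chr2:180334680-180334929. Gata2 has 2 start sites on the plus strand, with windows at chr6:88193641-88193890 and chr6:88198414-88198663.
Gata1: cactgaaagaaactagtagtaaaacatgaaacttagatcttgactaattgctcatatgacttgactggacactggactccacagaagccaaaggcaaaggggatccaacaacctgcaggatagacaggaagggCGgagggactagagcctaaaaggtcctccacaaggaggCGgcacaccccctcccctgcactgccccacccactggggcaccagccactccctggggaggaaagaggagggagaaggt
Gata3: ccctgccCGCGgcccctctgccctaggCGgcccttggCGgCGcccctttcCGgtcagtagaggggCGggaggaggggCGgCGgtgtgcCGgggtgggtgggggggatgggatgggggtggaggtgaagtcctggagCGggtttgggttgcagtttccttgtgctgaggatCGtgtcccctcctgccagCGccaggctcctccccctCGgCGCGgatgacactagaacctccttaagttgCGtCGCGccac
Gata2, first site: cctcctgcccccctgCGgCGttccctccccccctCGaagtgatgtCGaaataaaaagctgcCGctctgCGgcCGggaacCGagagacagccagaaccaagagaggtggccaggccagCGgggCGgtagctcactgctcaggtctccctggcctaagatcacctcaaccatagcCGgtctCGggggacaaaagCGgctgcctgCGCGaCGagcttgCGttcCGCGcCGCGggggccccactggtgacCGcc
Gata2, second site: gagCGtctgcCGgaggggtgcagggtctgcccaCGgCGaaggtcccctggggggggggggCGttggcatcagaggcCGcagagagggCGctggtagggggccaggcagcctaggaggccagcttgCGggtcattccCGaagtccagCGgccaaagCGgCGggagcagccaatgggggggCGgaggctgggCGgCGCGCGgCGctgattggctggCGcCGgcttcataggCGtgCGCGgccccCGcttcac
Gata5: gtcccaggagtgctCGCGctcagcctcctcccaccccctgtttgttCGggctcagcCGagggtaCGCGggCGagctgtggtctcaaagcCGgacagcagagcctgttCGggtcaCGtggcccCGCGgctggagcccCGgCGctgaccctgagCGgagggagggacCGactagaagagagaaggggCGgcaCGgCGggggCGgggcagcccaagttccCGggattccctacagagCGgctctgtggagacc
Gata1 held 2 CG dinucleotides in this window and Gata3 held 19. The Gata2 windows held 22 and 24, and that of Gata5 held 22. The ratio of observed to expected CG, which corrects for base composition, was 0.11 for Gata1, 0.63 for Gata3, 0.78 and 0.74 for Gata2, and 0.72 for Gata5. The windows of the 2 genes missing at E15.5 in KO were thus unlike, 1 poor and 1 rich in CG. Both windows lie inside the annotated gene, whose 5′ end is at 7978071 for Gata1 and at 9890034 for Gata3. Sequence before those annotated 5′ ends was not measured, so the values describe the RefSeq start site only. A CG occurs in 92.1% of all 32851 RefSeq windows of this length, and in all 68 windows of the members.

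At E13.5 the WT list held 65 of the 81 members (80.2%) and the KO list 63 (77.8%). The KO list of E15.5 held 55 (67.9%). Among all 22028 annotated protein-coding genes the shares were 77.7% (WT) and 77.9% (KO) at E13.5, and 75.9% for KO at E15.5. The members' shares were thus near the background at E13.5 and lower than it in E15.5 KO. In all 3 complete lists stood 48 members (59.3%, against 72.8% of protein-coding genes), and 9 (11.1%, against 18.5%) stood in none. The other 24 were in 1 or 2 lists (29.6%, against 8.67%).

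**Figure D1:**
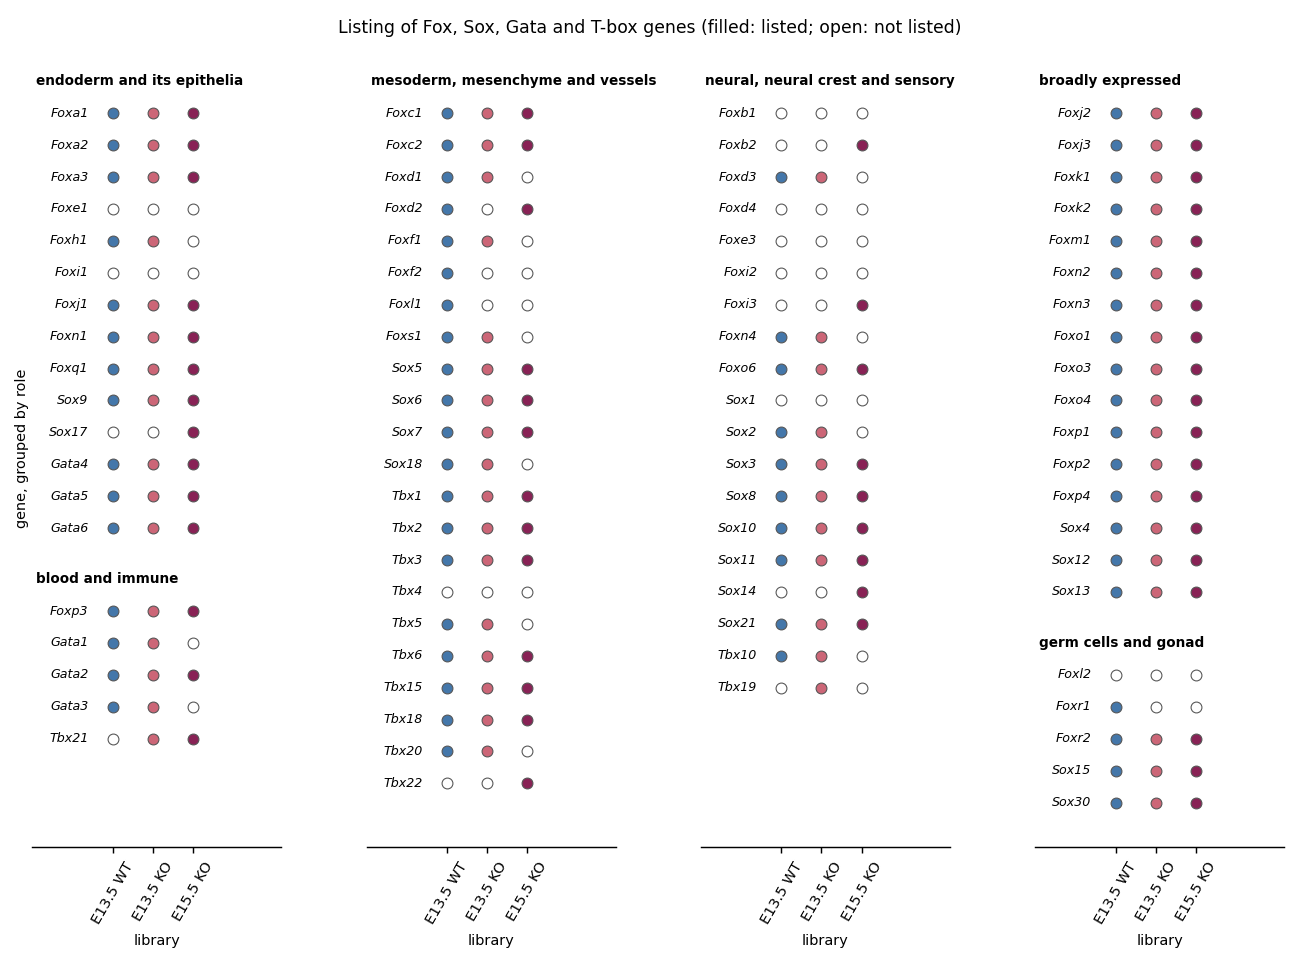
Listing of each of the 81 genes (rows, grouped by role) in the 3 libraries with a complete list (columns); filled circles are listed and open circles not listed. The broadly expressed genes are filled throughout, while open circles are frequent among the neural genes in every column. The mesodermal genes have few open circles in the E13.5 WT column and the most in the E15.5 KO column.

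Among genes of the endoderm and its epithelia, the tissue that gives rise to the pancreas, 11 of 14 (78.6%) were listed in each complete library. This was near the share of protein-coding genes given above, 77.7% and 77.9% at E13.5 and 75.9% in the older KO library. Foxa1, Foxa2 and Foxa3, the endodermal pioneer factors, were in all 3. The same held for Gata4, Gata5 and Gata6, of which Gata4 and Gata6 act in pancreatic progenitors, and for Sox9, the progenitor and duct factor. Foxq1, which acts in the gastric surface epithelium, Foxj1, which drives the formation of motile cilia, and Foxn1, the factor of thymic epithelium and hair, completed the 10 that were always listed. Foxe1, a thyroid factor, and Foxi1, a factor of acid-secreting epithelial cells, were in none. Foxh1, the nuclear partner of Nodal signalling in the early embryo (chromosome 15, 76668225 to 76669948, 3 exons), was in both E13.5 lists and missing from E15.5 KO. Sox17 went the other way. It separates the biliary from the pancreatic bud and also acts in arteries, and it was listed in E15.5 KO alone (chromosome 1, 4490931 to 4497354, 4 exons).

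The 16 broadly expressed members were listed in every complete library. They include Foxo1, Foxo3 and Foxo4, the forkhead targets of insulin signalling, and Foxm1, a driver of the cell cycle. Foxp1, Foxp2 and Foxp4, Foxk1 and Foxk2, Foxj2 and Foxj3, and Foxn2 and Foxn3 were also always listed. So were Sox4, which acts in endocrine differentiation, its relative Sox12, and Sox13. The roles were assigned with earlier results of these data known, so the complete listing of the genes called broadly expressed is a description and supports nothing. The same holds for the shares of the other roles, which also depend on which genes were set apart as broadly expressed.

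Genes of mesoderm, mesenchyme and vessels were listed to different extents. Of 22 genes, the WT library held 20 (90.9%) at E13.5, the KO library 17 (77.3%) at that age, and the older KO library 13 (59.1%). The shares of protein-coding genes were 77.7%, 77.9% and 75.9%. The mesodermal share was thus above the background in E13.5 WT, near it in E13.5 KO and below it in E15.5 KO. The 11 listed throughout were Foxc1 and Foxc2, which act in paraxial mesoderm and vessels, Sox5 and Sox6 of cartilage, Sox7 of endothelium, and Tbx1, Tbx2, Tbx3, Tbx6, Tbx15 and Tbx18. Tbx4, a hindlimb and lung mesenchyme factor, was in none.

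Neural, neural crest and sensory genes were the least often listed, with 10 of 19 (52.6%) in WT and 11 (57.9%) in KO at E13.5, and 9 (47.4%) in KO at E15.5. Each share was below that of protein-coding genes (77.7%, 77.9% and 75.9%). Both E13.5 lists held the same 10 genes, with Tbx19 added in KO, while the KO lists of the different ages shared 6. Only 6 were in all 3 lists, namely Sox10 and Sox8 of neural crest and glia, Sox3, Sox11 and Sox21 of neural progenitors, and Foxo6 of the brain. In none were Sox1 (neural plate), Foxb1 (diencephalon), Foxe3 (lens), Foxi2 and Foxd4. The remaining 8 changed between lists.

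The small roles gave few genes. Of the 5 blood and immune genes, Gata2, a factor of blood progenitors, and Foxp3, the factor of regulatory T cells, were in all 3 complete lists. Among the 5 genes of germ cells and gonad, Foxr2, Sox15 and Sox30 were in all 3, and Foxl2, the ovarian factor, was in none. Foxp3 overlaps the genes Ppp1r3f and Ccdc22 and Sox15 overlaps Mpdu1, each on the opposite strand and in all 3 lists. Foxp3 also overlaps Flicr on the same strand, which was in all 3 lists. The labels do not say whether counting used the strand, so the listing of Foxp3 and of Sox15 is uncertain. The same limit holds for other members with a listed gene on the opposite strand, among them Gata5 and Gata6.

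**Figure D2:**
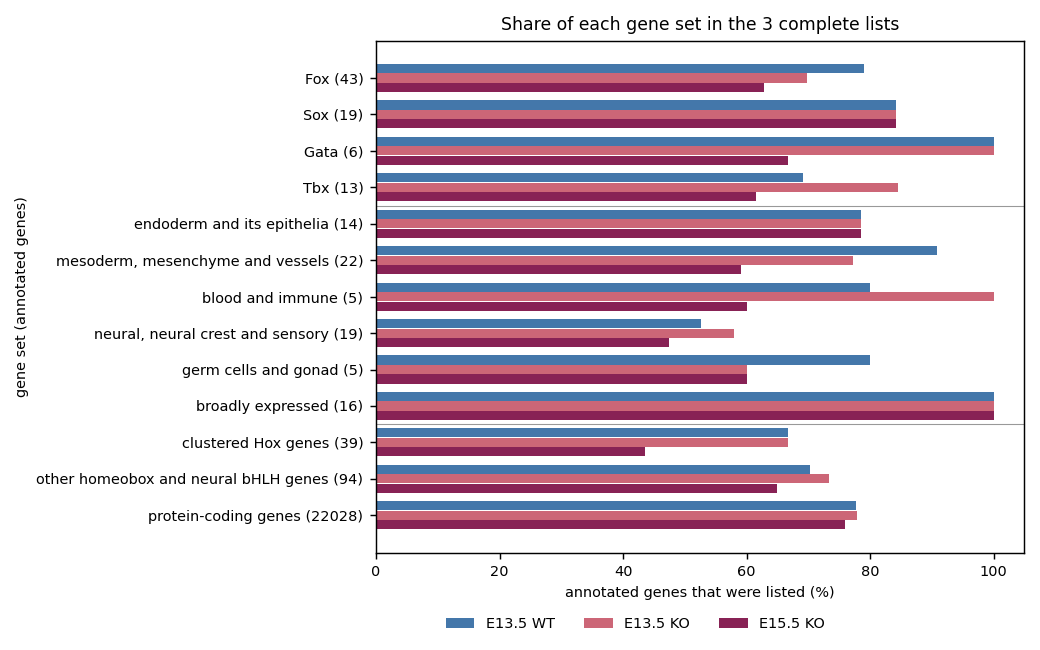
Percentage of annotated genes (horizontal axis) of each family, role and comparison set that was listed in each of the 3 complete lists (bars), with the number of annotated genes in brackets. Mesoderm genes run from 90.9% in E13.5 WT to 59.1% in E15.5 KO, against 77.7% and 75.9% of protein-coding genes. All 16 broadly expressed genes are at 100%.

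The first comparison asks which members the sorted cells of Setd2 KO and WT pancreas listed at E13.5. Both lists held the same 16 Sox and 6 Gata genes and the same 11 genes of endoderm. Of the 34 Fox genes in either list 4 were in WT only, and of the 11 Tbx genes 2 were in KO only. Together 6 of 67 members (8.96%) were listed in 1 genotype only, against 6.08% of protein-coding genes. The 4 in WT only made up 5.97% (background 2.91%), and the 2 in KO only made up 2.99%, near the background of 3.17%. Clustered Hox genes (4 of 28 differed, 14.3%) and other homeobox and neural bHLH genes (19 of 77, 24.7%) had larger shares than the members in this comparison.

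Foxf2 (chromosome 13, 31625816 to 31631403, 2 exons) and Foxl1 (chromosome 8, 121127940 to 121130644, 1 exon) are factors of gut mesenchyme, and neither KO list held them. Foxd2 (chromosome 4, 114906282 to 114908873, 1 exon), of kidney and somite mesenchyme, was missing from E13.5 KO and present again in E15.5 KO. Foxr1, a germline forkhead gene (chromosome 9, 44433773 to 44441136, 5 exons), was in E13.5 WT alone. All 5 mesenchyme markers (Col1a1, Col3a1, Pdgfra, Vim and Nkx3-2) were in both E13.5 lists, and Nkx3-2 was missing from E15.5 KO, as Foxf2 and Foxl1 were. A marker can stay listed at almost any number of cells, so these listings do not show whether mesenchyme, or any cell type whose markers are given below, differed in amount.

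On the KO side, Tbx21 (chromosome 11, 97098071 to 97115331, 6 exons), which encodes T-bet of T and NK cells, was in both KO lists and not in E13.5 WT. It was the 1 of 81 members with that pattern, which 229 of 22028 protein-coding genes also had. Tbx19, a pituitary factor (chromosome 1, 165137855 to 165160773, 8 exons), was in E13.5 KO alone. All 4 immune markers (Ptprc, Cd68, Csf1r and Lyz2) were in both E13.5 lists.

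The second comparison sets E15.5 KO beside E13.5 KO and asks which members differed with age. The lists shared 49 of the 69 members that either held. Another 14 were listed in the younger library alone and 6 in the older. The 20 that differed made up 29%, against 7.57% of protein-coding genes. The 14 at E13.5 only were 20.3% of members (background 5.03%), and the 6 at E15.5 only were 8.7% (background 2.55%). Clustered Hox genes (9 of 26 differed, 34.6%) and other homeobox and neural bHLH genes (18 of 74, 24.3%) also stood above the background, as the 4 families did. Age and library coincide here and cannot be told apart.

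**Figure D3:**
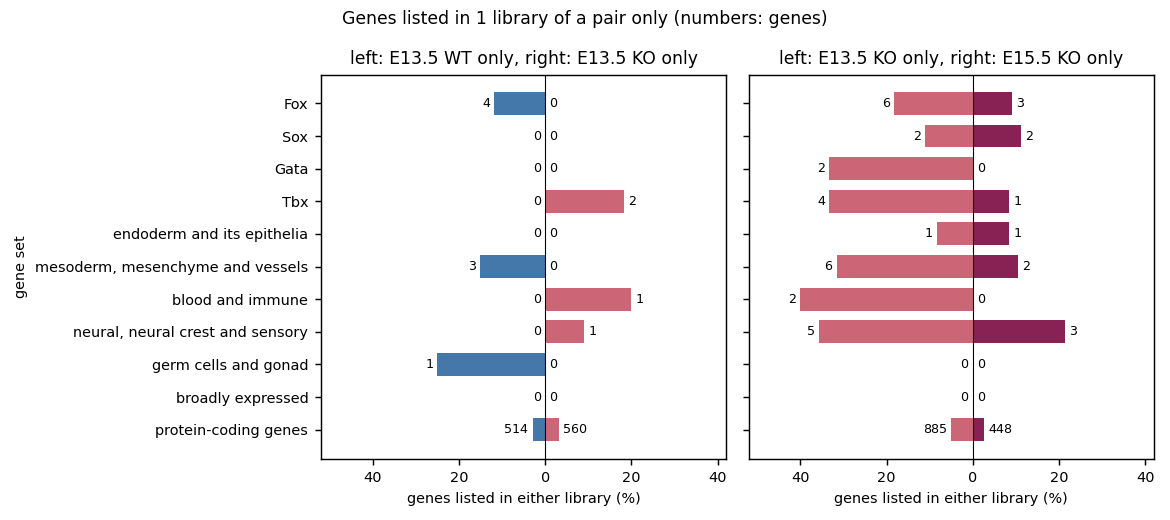
Genes listed in 1 library of a pair only, as a percentage of the set's genes listed in either (bars, with the number of genes at their ends), for genotype at E13.5 (left panel) and for age in KO (right panel). The age panel shows bars in each family and in 4 of the 6 roles, against 885 and 448 genes, or 5.03% and 2.55%, for protein-coding genes.

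Mesodermal genes, which are 22 of the 81 members, gave 6 of the 14 members at E13.5 only. These were 31.6% of the mesodermal genes in either KO list, against 20.3% of members and 5.03% of protein-coding genes. Foxf1 (chromosome 8, 121084386 to 121088144, 2 exons) patterns the mesenchyme of gut and lung, and Foxd1 (chromosome 13, 98354242 to 98359305, 1 exon) marks kidney stroma. Foxs1 (chromosome 2, 152931898 to 152933208, 1 exon) is a gene of pericytes, and Sox18 (chromosome 2, 181669836 to 181671640, 2 exons) acts in endothelium and lymphatic vessels. Tbx5 (chromosome 5, 119832668 to 119885219, 9 exons) and Tbx20 (chromosome 9, 24718138 to 24774303, 8 exons) are factors of the heart, and Tbx5 also acts in the forelimb. All 6 were in E13.5 WT as well. Of the 5 endothelial markers, Cdh5 and Tie1 were missing from E15.5 KO while Pecam1, Kdr and Emcn were listed, and of the 5 mesenchyme markers Nkx3-2 was missing. The part of these cell types in the listing of the 6 genes was not tested.

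Blood and immune genes, which are 5 of the 81 members, gave 2 more. They were 40% of the blood and immune genes in either KO list, against 20.3% of members and 5.03% of protein-coding genes. One is Gata1 of red cells and megakaryocytes (X chromosome, 7959260 to 7978071, 6 exons). The other is Gata3 of T cells and sympathetic neurons (chromosome 2, 9857078 to 9890034, 6 exons). These are the 2 of 6 Gata genes absent from E15.5 KO. All 4 erythroid markers (Hba-a1, Hbb-bt, Klf1 and Alas2) were in both KO lists, and the part of erythroid cells in the listing of Gata1 was not tested. The 10 partner proteins of Gata factors, such as Zfpm1, Tal1, Lmo2 and Ldb1, were in all 3 complete lists, as were 72.8% of protein-coding genes.

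Neural genes, which are 19 of the 81 members, gave 5 of the 14. These were 35.7% of the neural genes in either KO list, against 20.3% of members and 5.03% of protein-coding genes. Foxd3 (chromosome 4, 99656299 to 99658622, 1 exon) is a neural crest factor and Sox2 (chromosome 3, 34650405 to 34652461, 1 exon) a factor of neural progenitors and of the foregut and stomach. Foxn4 (chromosome 5, 114254164 to 114273807, 10 exons) acts in retina and spinal cord, and Tbx10 (chromosome 19, 3992752 to 3999512, 8 exons) is a T-box gene of the hindbrain. The fifth was Tbx19, described above. The 2 neural crest and glia markers examined, Ednrb and S100b, were in both KO lists. With Foxh1, 13 of the 14 genes at E13.5 only were also in E13.5 WT, and Tbx19 was the exception. Of all annotated protein-coding genes 2.51% had this pattern of both E13.5 lists and not E15.5 KO, of members 16%, of Hox genes 17.9% and of the other homeobox and bHLH genes 11.7%.

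At E15.5 only stood 6 members. Foxb2 (chromosome 19, 16872319 to 16873805, 1 exon), Foxi3 (chromosome 6, 70956531 to 70961066, 2 exons), Sox14 (chromosome 9, 99874106 to 99876170, 1 exon), Sox17 and Tbx22 (X chromosome, 107667964 to 107688978, 9 exons) were in neither E13.5 list. Foxb2 and Sox14 are genes of the developing brain, Foxi3 of ectodermal placodes and Tbx22 of the palate. Foxd2, the sixth, was in E13.5 WT. Apart from Sox17, the genes at E15.5 only came from the neural (3) and mesodermal (2) roles, which hold 19 and 22 of the 81 members. They were 21.4% of the neural and 10.5% of the mesodermal genes in either KO list, against 8.7% of members and 2.55% of protein-coding genes.

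The E15.5 WT list covered 3 of the 81 members before it broke off. Sox9 and Tbx2 were in it, as in the other 3 lists, and Tbx4 was in none of the 4. Genotype at E15.5 could thus be compared for 2 listed members, and 0 differed, where 4.68% of the 171 protein-coding genes in either E15.5 list did. Age in WT could be compared for the same 2, and again 0 differed, against 6.29% of 175 protein-coding genes. The other 78 members were not analysed in E15.5 WT, so no pattern at E15.5 can be tied to the KO genotype.

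Single-exon genes, whose longest transcript has 1 exon, made up 8 of the 48 members in all 3 lists (16.7%), 8 of the 24 in 1 or 2 lists (33.3%) and 5 of the 9 in none (55.6%). Protein-coding genes in general had fewer, with 6.24%, 9.64% and 18.8%. The median longest transcript was 3792 nt for members in all 3 lists, 2389 nt for those in 1 or 2 and 2804 nt for those in none. For protein-coding genes in the same classes the medians were 3262, 2082 and 1698 nt. Between the KO ages 7 of 15 single-exon members differed (46.7%) and 13 of 54 with more exons (24.1%). Among all protein-coding genes the same shares were 10.9% and 7.34%, so members of both kinds stood above other genes of their kind.

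CG content before the start sites could be computed for the 54 members found in the RefSeq table. The median observed to expected ratio was 0.75 for 30 members in all 3 lists, 0.69 for 17 in 1 or 2 lists and 0.29 for 7 in none. For protein-coding genes in the same classes the medians were 0.67, 0.22 and 0.13. The median of members in 1 or 2 lists was thus close to that of members in all 3, while the median of all protein-coding genes in 1 or 2 lists was far below that of genes in all 3. Within the 17 the range was wide, from 0.09 for Tbx22 and 0.11 for Gata1 to 0.88. The 7 in none also ranged widely, from 0.15 to 0.99, the latter being Sox1. These are descriptions over genes, which are not replicates.

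**Figure D4:**
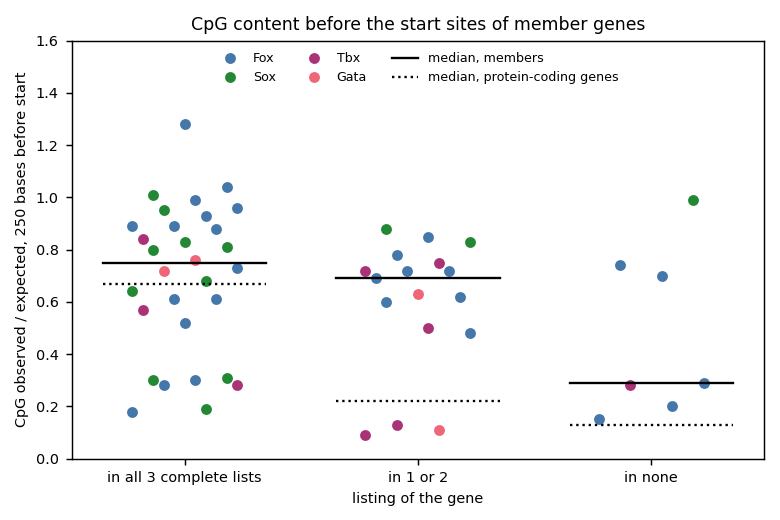
Observed to expected CG ratio in the 250 bases before the start site (vertical axis; median over a gene's start sites) for 54 member genes, by the number of complete lists that held the gene and coloured by family. Solid lines are medians of members (0.75, 0.69 and 0.29) and dotted lines medians of protein-coding genes (0.67, 0.22 and 0.13).

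Some members are neighbours in the genome. Within 500 kb of another member lay 14 genes in 6 groups, and in 0 of the groups did all genes share 1 listing pattern. No background of other neighbouring genes was computed, so this is a description of the groups. On chromosome 8, Foxf1, Foxc2 and Foxl1 lie within 46.3 kb. Foxc2 was in all 3 lists, Foxf1 in both E13.5 lists and Foxl1 in E13.5 WT alone. On chromosome 13, Foxq1 and Foxc1 were in all 3 lists and Foxf2, which lies between them, in E13.5 WT alone. Tbx3 was always listed and Tbx5, whose start lies 162.0 kb from that of Tbx3 on chromosome 5, was not in E15.5 KO. Tbx2 was always listed and its neighbour Tbx4 on chromosome 11 never.

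**Figure D5:**
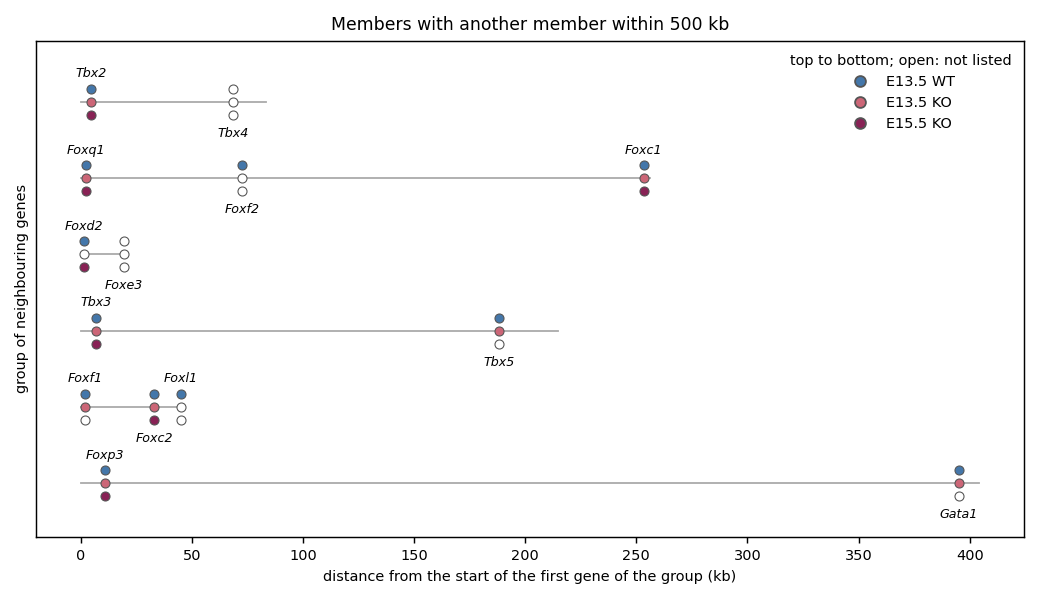
The 6 groups of members that lie within 500 kb of each other (rows), placed by distance from the start of the first gene (horizontal axis, kb), with a circle per library that is filled where the gene was listed. Each group holds genes with different patterns, as in Foxf1, Foxc2 and Foxl1 within 46.3 kb.

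Overlapping genes limit some listings. Of the 81 members, 24 overlap another annotated gene that was in a complete list, 19 of them on the opposite strand. Among the 24 members in 1 or 2 lists this touches 2 in a library that listed them. Sox2 lies inside Sox2ot on the same strand, and Sox2ot was in all 3 lists. Gata3 overlaps 4930412O13Rik, which was in E13.5 WT. The listings of these 2 genes in those libraries are therefore uncertain. Foxf1, Foxl1 and Foxc2 also overlap a protein-coding gene, Gm20388, on the same strand, and Gm20388 was in no complete list. Of these, Foxc2 was in all 3 complete lists. Whether an overlap kept a gene off a list was not tested.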

How the data were processed

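Single-cell RNA sequencing of sorted fetal pancreas was measured in 4 libraries, grouped by their titles. The files deposited by the authors hold an Ensembl identifier and a symbol per line and no measured value. Seurat and mm10 are named in the submitters' processing notes, without a version. The aligner, annotation release, criterion for listing a gene and treatment of doublets were not given in the sources used here. Members, roles and lists were chosen with earlier results of these data known. Members were matched by symbol and, with the same result, by identifier to GENCODE M21 on GRCm38, which gave types, exons and positions. All 72 listed members matched. A gene that the name rule takes and some cell type markers are not reported here and enter no member or marker count. Background shares are over protein-coding genes. Every member is accounted for by name, and those missing from any of the 3 complete lists are described singly. Start site windows came from RefSeq (GRCm38.p6) for 54 members. Proteins were not used here. Counting steps were tested on simulated lists. Python 3.11.15 was used.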

Additional observations from a re-analysis of the deposited data

How the results depend on the processing

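Finding members by identifier, or as protein-coding genes only, left the counts per library (65, 63 and 55) and the members that differed (6 between the younger genotypes, 20 between ages in KO) as they were, and so did appended numbers and other letter case for the counts per library. Only the background moved. Over all listed genes in place of protein-coding ones, 16.3% differed between the E13.5 genotypes and 17.8% between the KO ages. At E13.5 the members' 8.96% was above the protein-coding background of 6.08% and below that of all listed genes, while between the ages their 29% was above both. Over all annotated genes, 45.8% (WT) and 47.4% (KO) were listed at E13.5, and 45.8% for KO at E15.5. These shifts follow from the non-coding genes that are added. The alternative with a minimum of UMI counts could not be computed from lists. No paired analysis was possible because the labels give 1 library per group. Each count rests on single libraries of unknown depth.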

Other observations

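Of 16 further genes, each named for a member except Fendrr, which lies beside Foxf1, 6 had the listing pattern of their member (Foxl2os, Foxo6os, Gata5os, Sox5os2, Sox6os and Tbx3os1) and 10 had another. At E13.5 the WT list held 10 of the 16 (62.5%) and the KO list 9 (56.2%), against 45.8% and 47.4% of all annotated genes. KO at E15.5 held 7 (43.8%), against 45.8% of all annotated genes. The 16 genes are annotated as non-coding, whereas this background includes protein-coding genes, which were listed more often (77.7%, 77.9% and 75.9%). It is thus not a background of like genes, and the shares cannot be called near it or above it. Of the 10 that differed from their member, 5 are named for Sox5 and were in none of the complete lists, while Sox5 was in all 3. Fendrr, a non-coding gene (chromosome 8, 121054882 to 121083110), was in E13.5 WT alone, whereas Foxf1 was in both E13.5 lists. Sox1ot was in both E13.5 lists although Sox1, which it overlaps, was in none. Sox2ot stayed in E15.5 KO, where Sox2 was missing. Foxd2os was in all 3 complete lists and Foxd2 was missing from E13.5 KO. Tbx3os2 was missing from E15.5 KO and Tbx3 was not.

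Relatives and partners outside the 4 name rules differed little. Of 18 relatives, such as Eomes and Lef1, 16 were in E13.5 WT and 15 in each KO list. The 1 that differed was T, the Brachyury gene of the primitive streak and notochord, which was in E13.5 WT alone. Of 20 corepressors and regulators found, 19, 19 and 18 were listed, and Pou5f1, the pluripotency factor that pairs with Sox2, was missing from E15.5 KO as Sox2 was.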
